A study of Mus musculus with 9 samples.

Results

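Expression levels in the whole lung of C57BL/6J mice were described from the 3 arrays labelled with that strain, out of 9 arrays of 3 strains. All probesets that the platform annotation pairs with 1 gene symbol were taken, which gave 23521 of 41345 probesets and 22180 different symbols. C57BL/6J is an inbred laboratory strain whose airways respond weakly to methacholine, a bronchoconstrictor, and it served as the parental strain in a study of airway hyperresponsiveness. The other arrays came from CSS12, which carries Chromosome 12 of the A/J strain on a C57BL/6J background, and from BcA86, a recombinant congenic strain whose genome is mostly C57BL/6J with segments from A/J. Those 6 arrays were used here only for the spread within each strain. All 9 mice were naive and untreated, and the methods give 1 range of age, that of young adults, for every animal of the study. The sex of the mice is not given in the sources used here. Each array held RNA of a different mouse, so the spread among the 3 arrays combined differences between mice with differences in dissection, extraction and hybridisation. Lungs had been kept in a stabilising solution, and a small piece of each, not the entire organ, went into a joint extraction of all samples.

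The lung exchanges gas across thin alveolar type I cells, while alveolar type II cells make surfactant, the film that keeps alveoli open. A dense capillary network lies beneath them, supported by fibroblasts, pericytes and matrix. The conducting airways are lined by secretory club cells, a few goblet cells and ciliated cells that clear mucus, and are wrapped in smooth muscle. Alveolar macrophages, monocytes, neutrophils and lymphocytes patrol the tissue or sit in its vessels.

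Values were log2 expression values after robust multi-array averaging (RMA), in which a difference of 1 is a doubling of signal. The 3 C57BL/6J arrays were alike as wholes, with medians of 6.13, 6.08 and 6.10 over all probesets in replicates 1, 2 and 3. Pearson correlations across probesets, which are not independent replicates, lay between 0.994 and 0.995 for the 3 pairs. Replicates 1 and 2 differed by 1 or more at 58 probesets, replicates 1 and 3 at 60 and replicates 2 and 3 at 81. As a reference for absent transcripts, the 1405 probesets of olfactory and vomeronasal receptors, which detect odours and pheromones in the nose, had a median level of 3.94. Their 95th percentile, 6.06, was taken as the background level, and 14266 probesets (60.7%) lay above it. Replicate numbers only name the mice.

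A level on this platform also depends on how many probes a probeset has and how well they bind, so an order of genes by level is an order of signal and not of transcript number. Among the 976 genes with more than 1 probeset, the highest and lowest probeset differed by a median of 2.18, and by 1 or more in 741 of them. Cyp2f2, a cytochrome P450 of club cells, had 1 probeset at 13.16 and another at 7.04. Each gene was represented by its brightest probeset, and predicted genes, small RNAs and segments of immunoglobulin and T cell receptor genes were set aside, which left 18639 genes, 12645 of them above background.

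The brightest genes of C57BL/6J lung were surfactant genes, club cell genes, mitochondrial genes and genes that most cells use. B2m, the light chain of MHC class I, had the highest level, with 13.52, 13.59 and 13.59 in replicates 1, 2 and 3. Sftpc, the surfactant protein made by type II cells, gave 13.31, 13.29 and 13.40 (mean 13.33 ± 0.06, SD, n = 3). Scgb1a1, the secretoglobin that defines club cells, gave 13.33, 13.21 and 13.35 (mean 13.30 ± 0.07). None of these genes varied by more than a fraction of a doubling among the mice.

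Further club cell genes among the 30 brightest were Cbr2, a carbonyl reductase, at 13.29 ± 0.03, and Cyp2f2 at 13.16 ± 0.01 (mean ± SD, n = 3). Of the type II cell genes, Sftpb had a mean of 13.05, Sftpa1 of 12.81, the phosphate transporter Slc34a2 of 12.76 and the lysozyme Lyz1 of 12.75. The mitochondrial genome gave 6 of the 30, namely ND4 at 13.37, COX1 at 13.07, ND5 at 12.99, ND3 at 12.98, CYTB at 12.97 and ND1 at 12.95, all encoding parts of the respiratory chain. Stromal genes were represented by Bgn, a matrix proteoglycan, at 13.05, Vim, an intermediate filament of mesenchymal cells, at 12.86, the methyltransferase Inmt at 12.84 and the secreted protein Igfbp7 at 12.82.

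The remaining members of the 30 were Rps6 (13.02), Rpl21 (12.86), Rpl41 (12.78), Eef1a1 (12.84) and Eif4a1 (12.74) of the translation machinery, the ferritin chain Fth1 (12.84), Serinc3 (13.01), the G protein subunit Gnb1 (12.90), Aldh1a1, a retinal dehydrogenase (12.79), the fatty acid desaturase Scd1 (12.76) and the myeloid lysozyme Lyz2 (12.71). SDs over the 30 ran between 0.01 (Sftpb) and 0.16 (CYTB). The whole set spanned 0.86, less than the median gap between probesets of the same gene, so neighbours within it cannot be put in order. Lyz1 and Lyz2 are near-identical copies, and how much signal their probes share is not known. In all, 135 genes had a mean of at least 12 and 578 of at least 11. Of the small RNAs set aside, the nuclear RNA Rn7sk was as bright, at 13.32.

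Lists of genes typical of cell types and tissues were then set in order by the median of their members' levels. In bulk tissue, a lower level of a cell type's genes can mean fewer cells of that type or less RNA per cell, and these cannot be told apart. The median level over the 23521 probesets with 1 symbol was 6.76, and 23 of 31 such lists had a median above the background level. The labelled tissue was borne out by its markers: all 18 alveolar type II genes (median 11.56), all 16 alveolar type I genes (median 11.30) and all 21 endothelial genes (median 10.99) lay above background. Genes of tissues that a lung should not contain were low, with medians of 5.45 for retina, 5.42 for liver, 5.07 for pancreas and 4.83 for both thymus and testis.

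**Figure D1:**
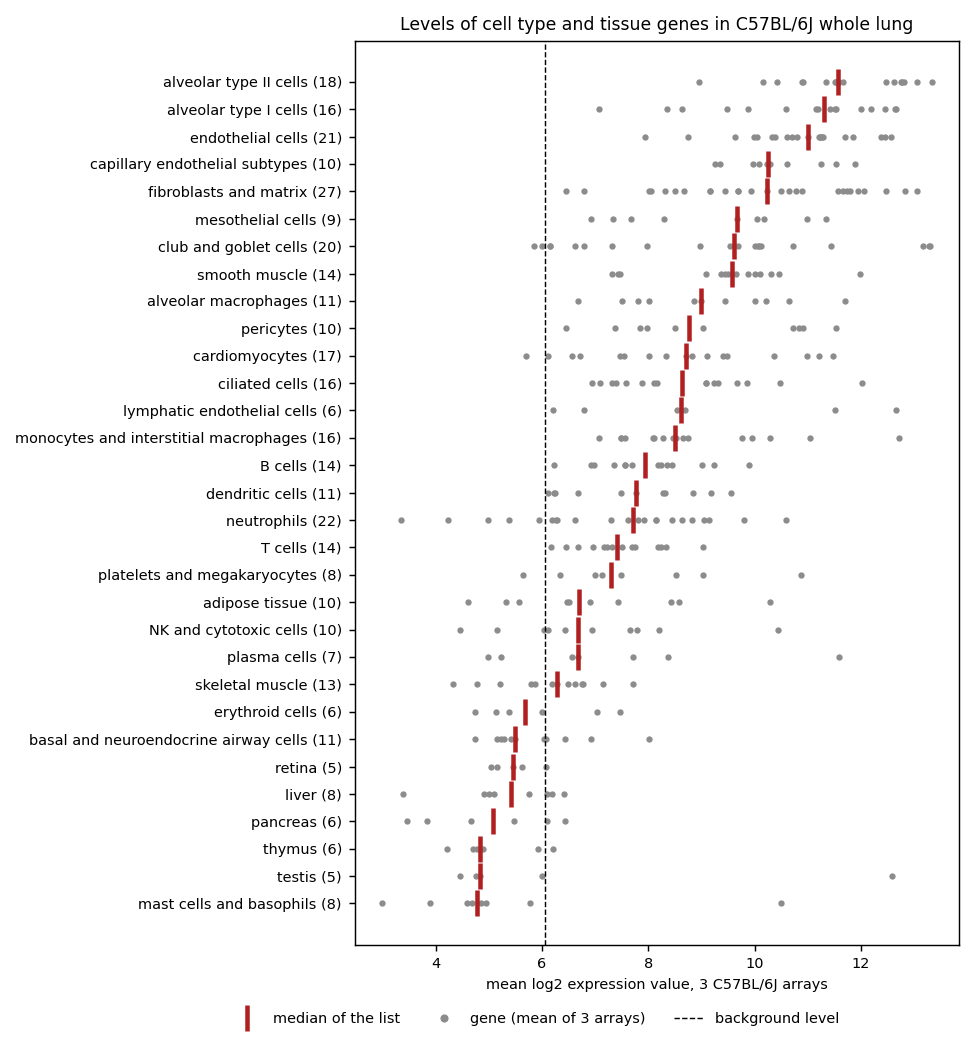
Mean log2 expression value of each measured gene (grey points) in 31 lists of cell type and tissue genes, with the median of each list (red bars) and the background level (dashed line), over the 3 C57BL/6J arrays. The number of measured genes stands in parentheses. Alveolar and endothelial lists lie at the top, and the lists of retina, liver, pancreas, thymus and testis lie below the background level except for a few genes.

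Type I cells were marked by Ager, the receptor for advanced glycation end products that sits on their basal side, with 12.69, 12.59 and 12.69 in replicates 1, 2 and 3. Emp2, a membrane protein, had a mean of 12.64 and the tight junction protein Cldn18 of 12.18 ± 0.01 (SD, n = 3). At the lower end of the list stood the basement membrane chains Col4a3 (8.35) and Col4a4 (7.07). Neither alveolar list had a member with an SD of 0.5 or more, and the median SDs were 0.05 for type II and 0.06 for type I genes.

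Endothelial genes were led by Cdh5, the cadherin of endothelial junctions, with 12.49, 12.58 and 12.61 in replicates 1, 2 and 3. Eng, a TGF-beta co-receptor, averaged 12.46 and Calcrl, the adrenomedullin receptor, 12.38. The list of capillary subtypes had a median of 10.26 and was led by Car4, a carbonic anhydrase of the aerocyte capillary, at 11.89, and Plvap, the diaphragm protein, at 11.53. Of the lymphatic genes, Lyve1 was bright at 12.66 and Prox1, the transcription factor that specifies lymphatic cells, was only just above background at 6.20.

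Among stromal lists, fibroblast and matrix genes had a median of 10.23, pericyte genes 8.77, smooth muscle genes 9.58 and mesothelial genes 9.66. Besides Bgn and Inmt, the calcification inhibitor Mgp averaged 12.47 and the integrin ligand Npnt 12.05. The contractile actin Acta2 gave 12.04, 12.10 and 11.79 in replicates 1, 2 and 3, and Des, the muscle intermediate filament, averaged 10.46. Lum (6.46) and Fgf10 (6.78) were the dimmest members of the fibroblast list.

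Of the airway lists, club and goblet genes had a median of 9.61 and ciliated genes 8.63. Tppp3, a tubulin-binding protein of ciliated cells, averaged 12.01, and the cadherin-related Cdhr3 averaged 10.48. The goblet cell genes Muc5ac (5.99) and Clca1 (5.85) were below the background level. Only 4 of 11 measured genes of basal and neuroendocrine cells were above it, led by the bombesin-like peptide Grp at 8.02.

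Most immune lists lay below the alveolar, endothelial and fibroblast lists. MHC class II genes, which present antigen, had a median of 10.85, with H2-Ab1 at 12.01. Alveolar macrophage genes had a median of 8.99, with Plet1 at 11.69 and the chitinase-like Chil3 at 10.64. The medians were 8.50 for monocytes and interstitial macrophages, 7.93 for B cells, 7.77 for dendritic cells, 7.72 for neutrophils, 7.41 for T cells, 7.30 for platelets, 6.69 for NK cells and 6.67 for plasma cells. Mast cell and basophil genes had a median of 4.77, with 1 of 8 above background, Gata2, a transcription factor that endothelial cells also use, at 10.49.

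Several levels went against what a list's name would lead one to look for. Odf1, a sperm tail gene, had 12.57, 12.57 and 12.58 in replicates 1, 2 and 3 at 1 of its probesets and a mean of 5.64 at the other. The other 4 measured testis genes had at most 6.00 (Prm1). Of 60 genes with a ribosomal protein symbol, 15 were at or below the background level. Among them were the related copies Rpl10l (2.89), Rpl32l (3.92), Rpl3l (5.37) and Rpl39l (6.04), which lung need not express. Others were Rpl11 (5.45) and Rps15 (5.49), which every cell needs. A low value therefore did not by itself show that a transcript was absent. No haemoglobin gene had a probeset with a single symbol, and the erythroid median of 5.69 rests on 6 of 15 listed genes.

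Genes of heart muscle were well above background in every C57BL/6J sample, with a median of 8.70 over 17 genes of which 16 exceeded the background level. Tnnt2, cardiac troponin T, had 11.58, 11.64 and 11.20 in replicates 1, 2 and 3, and the atrial myosin light chain Myl7 had 10.60, 10.40 and 10.10. Skeletal muscle genes were far dimmer, at a median of 6.29. In mice, pulmonary veins carry a sleeve of heart muscle into the lung. Which tissue gave this signal was not tested.

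Process lists gave a view of the state of the tissue. Cell cycle genes were low, with a median of 6.65 and Mki67, a marker of dividing cells, at 7.57. Of the circadian genes, Dbp averaged 11.55 and Nr1d1, the repressor known as Rev-erb alpha, 11.40, while Arntl, which encodes the clock activator BMAL1, had 6.66, 6.91 and 6.80 in replicates 1, 2 and 3. Type I interferon response genes had a median of 7.88, with Oasl2 at 10.49 and Mx1 (4.59) below background. Glucocorticoid targets had a median of 8.67, led by Errfi1 at 10.79, and 12 housekeeping genes had a median of 10.67 and a median SD of 0.05.

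Genes that carry or shape bronchoconstrictor signals had a median of 7.28 over 22 measured of 27 listed, and 21 of them were above background. The small GTPase Rhoa, which sensitises smooth muscle to calcium, averaged 12.55, and the G protein subunit Gnai2 averaged 11.93. The muscarinic receptors, picked out after their values were seen because methacholine acts on them, were moderate to low. Chrm2 had 8.92, 8.89 and 8.52 in replicates 1, 2 and 3, while Chrm3, the receptor that drives airway contraction, had 6.58, 6.73 and 6.89. Chrm1 averaged 6.58 at its brighter probeset and 5.63, below background, at the other. The histamine receptor Hrh1 was below background at 5.92.

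Of 4 measured sex-linked genes, the Y-linked Eif2s3y had 8.35, 8.37 and 8.57, Uty 8.25, 8.39 and 8.41, and Kdm5d 8.07, 8.29 and 8.30 in replicates 1, 2 and 3. Xist, the RNA that coats the inactive X chromosome, was below background in all of them, at 4.65, 4.59 and 4.50. The 3 samples were alike in this respect.

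Most genes differed little among the 3 lungs. The median SD over all 23521 probesets was 0.10, the 95th percentile was 0.31, and 175 probesets (0.744%) had an SD of at least 0.5. The spread was larger at low levels: the median SD was 0.14 for probesets with a mean under 4 and 0.06 for those between 12 and 14. None of the 147 probesets in the highest of these bins had an SD of 0.5 or more. With 3 arrays a single SD is itself imprecise, so no test of which gene varies was made. In addition, 282 probesets had exactly the same value in the 3 arrays, such as Ucp1, at 4.61, so their SD of 0 is not a measured steadiness.

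**Figure D2:**
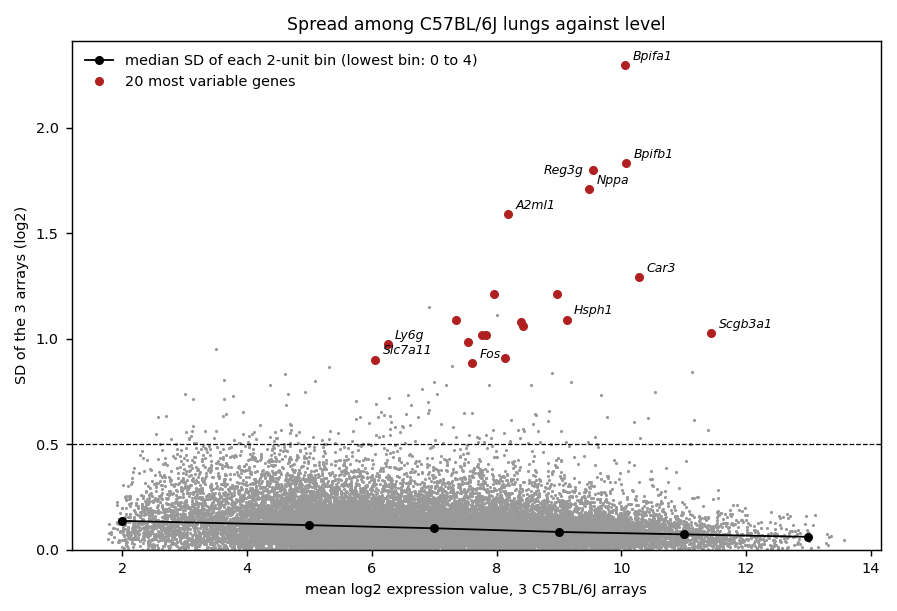
SD among the 3 C57BL/6J arrays against the mean log2 expression value, for 23521 probesets (grey), with the median SD in bins of level (black) and the 20 most variable named genes (red). The dashed line marks an SD of 0.5. Median SDs decline with level, and the 20 genes stand above the cloud, at means between 6.06 (Slc7a11) and 11.44 (Scgb3a1).

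The 20 genes with the largest SD were mostly secreted products of airway epithelium, genes of heart muscle and fat, and genes of neutrophils and of stress responses. In 17 of the 20 the highest value was in replicate 2, and in 18 the lowest was in replicate 3. Over 12645 genes above background the corresponding shares were 38.4% highest in replicate 2 and 33.3% lowest in replicate 3. Such shares, also given for lists below, leave out genes at or below background, which some lists contain. Of 1394 receptor genes, of which 71 were above background, 392 were highest in replicate 2 and 636 lowest in replicate 3. The highest array exceeded the lowest at least 4-fold in 11 of the 20. Without replicate 3, only 8 of the 20 remained among the 20 most variable, and without replicate 2 there were 12.

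Bpifa1, a secreted airway protein that binds bacterial lipid, varied most. Its values were 11.14, 11.62 and 7.42 in replicates 1, 2 and 3 (SD 2.30), an 18.3-fold range. Its relative Bpifb1 had 10.97, 11.30 and 7.98 (SD 1.83), and Reg3g, an antibacterial lectin, had 10.38, 10.76 and 7.47 (SD 1.80). In each of the 3 genes, replicates 1 and 2 were close together and replicate 3 stood well below both.

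The same shape was seen for Muc5b, the main gel-forming mucin of mouse airways, with 9.49, 9.83 and 7.58 in replicates 1, 2 and 3 (SD 1.21), and for Tff2, a trefoil peptide secreted with mucus, with 8.71, 8.62 and 6.57 (SD 1.21). Scgb3a1, a secretoglobin of the larger airways, had 12.01, 12.07 and 10.26 (SD 1.03). Of the other members of the list, Chad, a matrix protein, had 11.01, 10.87 and 10.28, and Lypd2 had 10.47, 10.24 and 9.67. The dimmer Agr2, which helps mucins fold, had 6.37, 6.67 and 5.42. Gsta3, with 9.38, 9.81 and 9.85, Agr3, with 7.10, 7.57 and 7.30, and Spdef, with 6.73, 6.81 and 6.82, were not lowest in replicate 3. The 3 brightest members did not share the shape of Muc5b either. Scgb1a1, Cbr2 and Cyp2f2 had SDs of 0.07, 0.03 and 0.01, and their largest difference between arrays was that of Scgb1a1, with 13.33, 13.21 and 13.35. These genes are among the brightest on the array, and the 147 probesets with a mean between 12 and 14 had a median SD of 0.06.

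**Figure D3:**
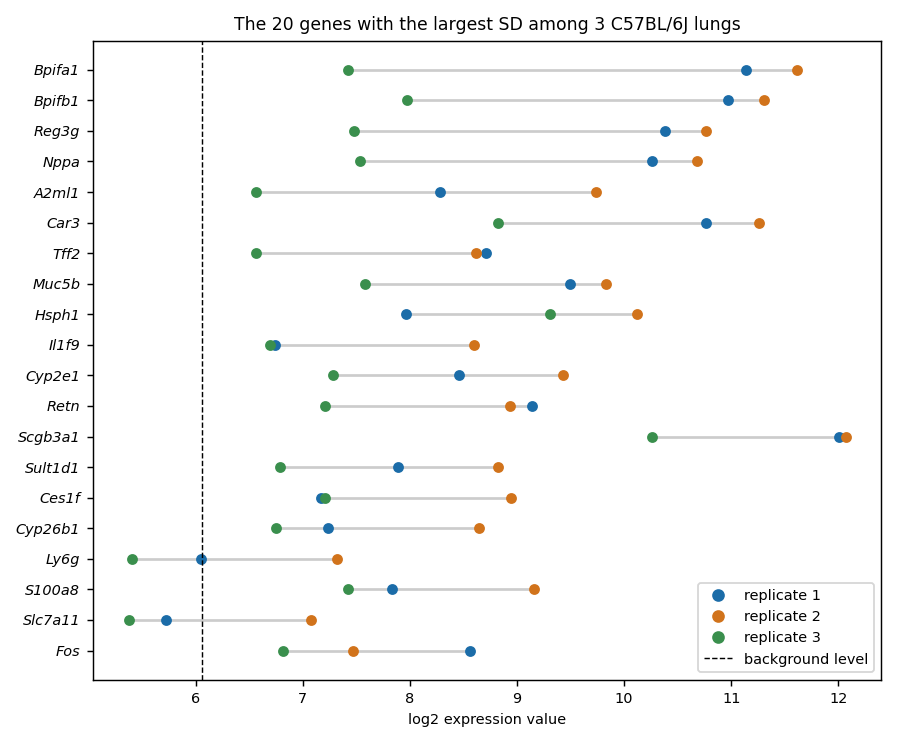
Log2 expression values of the 20 genes with the largest SD in replicate 1 (blue), replicate 2 (orange) and replicate 3 (green) of C57BL/6J lung, with the background level as a dashed line. Replicate 3 is lowest in 18 of the 20, and Ly6g and Slc7a11 reach the background level.

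Over the 20 genes of club and goblet cells, the median difference from each gene's own mean was 0.19, 0.17 and -0.37 in replicates 1, 2 and 3. Replicate 3 was lowest for 16 of the 20, where 33.3% of all genes above background were lowest in it. Ciliated genes went the same way, with median differences of 0.09, 0.18 and -0.28, and 15 of 16 were lowest in replicate 3. Foxj1, the transcription factor that directs ciliogenesis, had 9.34, 9.69 and 8.89 in replicates 1, 2 and 3, and the axonemal dynein Dnah5 had 8.31, 8.55 and 7.49. Tppp3 was an exception, with 12.09, 11.96 and 12.00. The median difference of all genes above background was -0.01, 0.02 and -0.00, and those of the 2 alveolar lists lay within 0.02 of 0.

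Heart muscle and fat genes were also lowest in replicate 3. Nppa, the atrial natriuretic peptide, had 10.26, 10.68 and 7.53 in replicates 1, 2 and 3 (SD 1.71). Of 17 cardiomyocyte genes, 16 were lowest in replicate 3, against 33.3% of all genes above background. Their median differences were 0.07, 0.17 and -0.27 in replicates 1, 2 and 3. Sln, the atrial regulator of the calcium pump, had 9.25, 9.54 and 8.55. The cardiomyocyte gene not lowest in replicate 3 was the ventricular myosin Myh7, with 7.61, 7.45 and 7.55. Nppa thus had a far larger range than the contractile genes, such as Tnnt2 with 11.58, 11.64 and 11.20.

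Car3, a carbonic anhydrase abundant in fat, had 10.77, 11.26 and 8.82 in replicates 1, 2 and 3 (SD 1.29), and its second probeset had 7.00, 8.02 and 5.73. Retn, the adipocyte hormone resistin, had 9.14, 8.94 and 7.21 (SD 1.06). The adipose list had median differences of 0.14, 0.28 and -0.41. Of its 10 genes, 9 were lowest in replicate 3, against 33.3% of all genes above background. Only 7 of the 10 were themselves above background. Adipoq, the hormone that defines fat cells, was dim at 6.61, 7.01 and 5.87. Fabp4 and Thrsp, outside the list and named after their values were seen, had 9.12, 9.58 and 7.95, and 7.44, 7.82 and 6.31. Ucp1, the marker of brown fat, was at 4.61, below background. Smooth muscle genes shifted less, with a median difference of -0.14 in replicate 3 and 10 of 14 genes lowest there. A drop in replicate 3 was not particular to these lists. Monocyte and interstitial macrophage genes had -0.17, with 13 of 16 lowest, and skeletal muscle genes -0.16, with 8 of 13. Alveolar macrophage genes had -0.07, with 9 of 11 lowest, against 33.3% of all genes above background. The part of airway, heart and fat tissue in the pieces taken was not tested.

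Neutrophil genes were highest in replicate 2. Over 22 genes the median differences were -0.12, 0.47 and -0.30 in replicates 1, 2 and 3. Of the 22, 18 had their highest value in replicate 2, against 38.4% of all genes above background. Only 17 of the 22 were themselves above background. S100a8, a subunit of calprotectin, had 7.83, 9.16 and 7.42 (SD 0.91), and Ly6g, the surface marker of mature neutrophils, had 6.05, 7.32 and 5.40 (SD 0.97). Mmp9, a gelatinase of neutrophil granules, had 8.41, 9.34 and 8.12. Of the granule genes, Camp (4.24) and Ngp (4.98) were below background, while Lcn2 averaged 10.60 and Ltf 7.29. Il1f9, an epithelial cytokine of the interleukin 1 family now called Il36g, had 6.74, 8.60 and 6.70 (SD 1.09). Here replicate 2 alone stood high, with the other two close together.

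Lymphocyte and platelet genes had patterns of their own. B cell genes had median differences of 0.34, -0.34 and -0.04 in replicates 1, 2 and 3, with 12 of 14 highest in replicate 1 and 11 of 14 lowest in replicate 2, against 30.2% and 23.3% of all genes above background. The B cell receptor subunit Cd79a had 9.69, 8.81 and 9.21, and Cd79b had 10.22, 9.41 and 10.04. T cell genes were shifted by only 0.15 in replicate 3, but 12 of 14 were highest there, against 31.4% of all genes above background, Cd8b1 with 7.99, 7.91 and 8.66 showing the largest SD. All 8 platelet genes were lowest in replicate 2, as were 23.3% of all genes above background, among them Ppbp, a platelet chemokine, with 11.08, 10.45 and 11.09. Endothelial genes, in the same vessels, were lowest in replicate 1 for 16 of 21 genes, against 43.3% of all genes above background, with a median difference of -0.11.

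**Figure D4:**
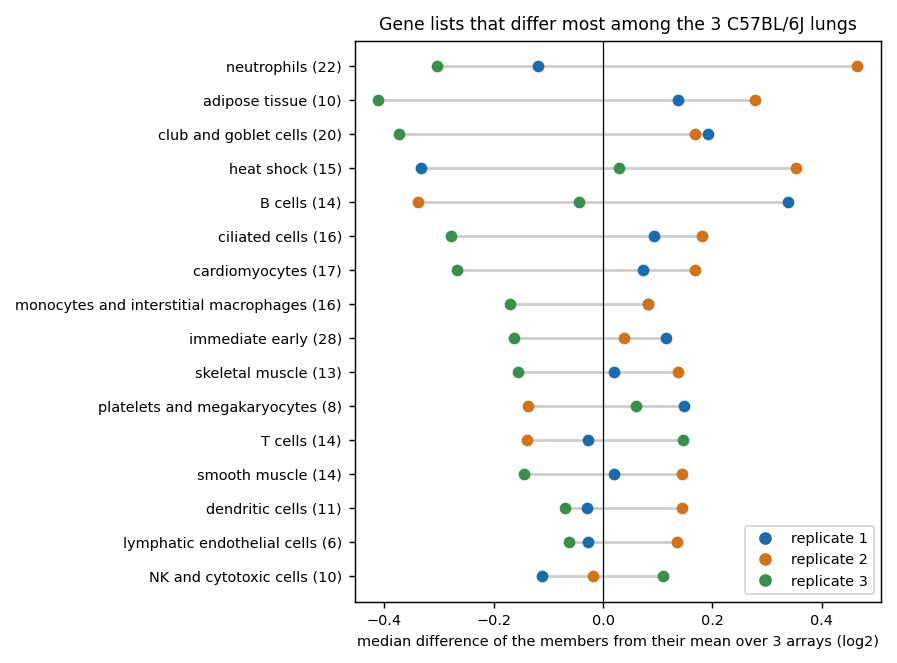
For the 16 gene lists that differed most among the 3 C57BL/6J lungs, the median over the members of each gene's difference from its own mean, in replicate 1 (blue), replicate 2 (orange) and replicate 3 (green). Airway, heart and fat lists are low in replicate 3, the neutrophil list is high in replicate 2, and the heat shock list is low in replicate 1 and high in replicate 2.

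Heat shock genes, whose products help proteins fold, separated replicate 1 from replicate 2. Hsph1, a co-chaperone of the HSP110 family, had 7.96, 10.12 and 9.31 in replicates 1, 2 and 3 (SD 1.09), a 4.46-fold range. Hspa1b, an inducible HSP70, had 10.37, 12.04 and 11.01, and Chordc1, a partner of HSP90, had 8.83, 10.13 and 10.07. Of 15 measured genes, 14 were highest in replicate 2 and 14 lowest in replicate 1, against 38.4% and 43.3% of all genes above background. The exception was the lens and muscle chaperone Cryab, with 12.34, 12.22 and 12.30 at its brightest probeset. Its other probeset had 8.18, 8.42 and 8.48 and was lowest in replicate 1. Hspa8, the constitutive HSP70, was also lowest in replicate 1 at all 4 of its probesets, the brightest of which had 12.20, 12.51 and 12.51. Hspa1a and Hspa1b are near-identical copies, and their probes may share signal.

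Heat shock factor binds runs of inverted GAA units, so the promoters of these genes were searched for single pairs of them, GAANNTTC and TTCNNGAA. Each is its own reverse complement and so covers both strands. The windows ran over 250 bases before and 50 after the start of the gene in RefSeq (GRCm38.p6). A match stood in 9 of 12 heat shock genes with a window (75.0%), against 4587 of 27025 genes (17.0%). Those of Hsph1 (chr5:149636287-149636586, minus strand), Hspa1b (chr17:34959189-34959488, minus strand) and Chordc1 (chr9:18292017-18292316, plus strand) are shown 5′ to 3′ because these genes had the largest SDs of the list, with matches in capitals, where adjoining capitals are overlapping matches.
Hsph1: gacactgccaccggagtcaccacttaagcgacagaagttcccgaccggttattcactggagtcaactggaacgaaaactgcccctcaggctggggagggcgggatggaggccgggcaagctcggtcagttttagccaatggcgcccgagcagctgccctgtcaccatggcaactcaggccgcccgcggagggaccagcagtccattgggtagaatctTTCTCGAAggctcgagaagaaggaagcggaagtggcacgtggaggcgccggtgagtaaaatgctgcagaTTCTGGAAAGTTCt
Hspa1b: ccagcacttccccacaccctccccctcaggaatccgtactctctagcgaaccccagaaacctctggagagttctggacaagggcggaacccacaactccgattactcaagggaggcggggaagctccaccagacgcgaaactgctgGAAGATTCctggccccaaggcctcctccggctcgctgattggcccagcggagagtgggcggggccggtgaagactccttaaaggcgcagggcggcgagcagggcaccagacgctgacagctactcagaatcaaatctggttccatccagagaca
Chordc1: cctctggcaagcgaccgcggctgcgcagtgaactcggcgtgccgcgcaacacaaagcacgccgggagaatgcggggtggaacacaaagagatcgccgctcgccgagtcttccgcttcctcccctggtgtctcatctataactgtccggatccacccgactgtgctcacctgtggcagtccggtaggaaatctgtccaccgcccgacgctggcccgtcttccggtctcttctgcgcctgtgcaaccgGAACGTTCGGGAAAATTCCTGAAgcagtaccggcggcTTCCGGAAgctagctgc
Hsph1 held 3 matches, Hspa1b 1 and Chordc1 5. Dnajb1, Hspa4l and Hspa5 had none in their windows, yet Dnajb1 had 8.45, 9.57 and 9.09 in replicates 1, 2 and 3. A match describes the letters only and is not a measured binding site.

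Immediate early genes, which respond to stimuli within minutes, were mostly lowest in replicate 3 (21 of 28), and 16 of 28 were highest in replicate 1. Of all genes above background, 33.3% were lowest in replicate 3 and 30.2% were highest in replicate 1. Fos, a subunit of the AP-1 transcription factor, had 8.56, 7.46 and 6.81 in replicates 1, 2 and 3 (SD 0.88), the zinc finger factor Egr1 had 9.42, 8.31 and 7.92, and the nuclear receptor Nr4a1 had 11.39, 10.27 and 9.97. Jun, the partner of Fos, did not follow, with 11.33, 11.34 and 11.50. The stress-induced factor Atf3 was highest in replicate 2, with 8.93, 9.44 and 8.14. Thus replicate 1 was the highest for Fos, Egr1 and Nr4a1 and the lowest for the heat shock genes.

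Enzymes and other genes made up the rest of the 20. A2ml1, a protease inhibitor, had 8.28, 9.74 and 6.56 in replicates 1, 2 and 3 (SD 1.59). The cytochrome Cyp2e1, which oxidises ethanol, had 8.46, 9.43 and 7.28 (SD 1.08), and Cyp26b1, which degrades retinoic acid, had 7.24, 8.65 and 6.75 (SD 0.98). The sulfotransferase Sult1d1 had 7.89, 8.82 and 6.78 (SD 1.02). In these 4 genes the 3 arrays were spread out, with replicate 2 highest and replicate 3 lowest. The carboxylesterase Ces1f had 7.17, 8.94 and 7.20 (SD 1.02), with replicate 2 alone high. So had the cystine transporter Slc7a11, with 5.72, 7.08 and 5.37 (SD 0.90), of which 2 values lay below background. The other Slc7a11 probeset, below background in every array, had 3.38, 3.35 and 3.18 and was not highest in replicate 2. Just outside the 20 stood Ltf of the neutrophil list, with an SD of 0.87, and Hspa1b and Fabp4, with 0.84 each.

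Once predicted genes, small RNAs and receptor segments were set aside, 93 probesets above background had an SD of at least 0.5. Among them, replicate 3 was the array farthest from the other two, on the low side, in 39 (41.9%), and replicate 2, on the high side, in 27 (29.0%). Replicate 1 was farthest on the low side in 18 (19.4%). Over all 13224 such probesets above background, whatever their SD, those shares were 17.8%, 16.8% and 25.2%.

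The same genes were then looked up for their spread within the other strains, without comparing levels. An SD of at least 0.5 was found for 11 of the 20 within CSS12 and for 13 within BcA86. All 20 reached it in C57BL/6J by the way they were chosen, so the sizes are a description. Over all probesets, 0.744% reached it in C57BL/6J, 1.05% in CSS12 and 0.736% in BcA86. The 8 genes with such an SD in both other strains were Bpifa1, Bpifb1, Reg3g, Nppa, A2ml1, Tff2, Muc5b and Scgb3a1. The SD of Bpifb1 was 1.83 in C57BL/6J, 1.13 in CSS12 and 1.19 in BcA86, and that of Tff2 was 1.21, 1.43 and 1.30 in the same strains. Scgb1a1 had SDs of 0.07 in C57BL/6J, 0.04 in CSS12 and 0.05 in BcA86.

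A different set varied in C57BL/6J and was below an SD of 0.5 in both other strains, namely Hsph1, Il1f9, Ces1f and Ly6g. Hsph1 had SDs of 1.09 in C57BL/6J, 0.08 in CSS12 and 0.34 in BcA86. An SD below 0.5 was not always a small one, as that of Hsph1 in BcA86 exceeded 96.4% of probesets. In BcA86 the heat shock genes Hspa1a and Hspa1b had SDs of 0.43 each, against 0.09 and 0.11 in CSS12. All other genes of the heat shock list had at most 0.14 (Hspa4l) in BcA86. Nr4a1, outside the 20, had SDs of 0.75 in C57BL/6J, 0.08 in CSS12 and 0.06 in BcA86, and Chordc1 of 0.73, 0.07 and 0.11 in the same strains. Whether these spreads differ between strains was not tested, since the genes were picked for their spread in C57BL/6J. Muc5ac, a goblet cell mucin below background in C57BL/6J, had an SD of 0.27 there and of 1.94 in CSS12, and Clca1, a secreted protein of the same cells, had 0.33 in C57BL/6J and 3.43 in CSS12. Both were picked out after their values were seen.

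**Figure D5:**
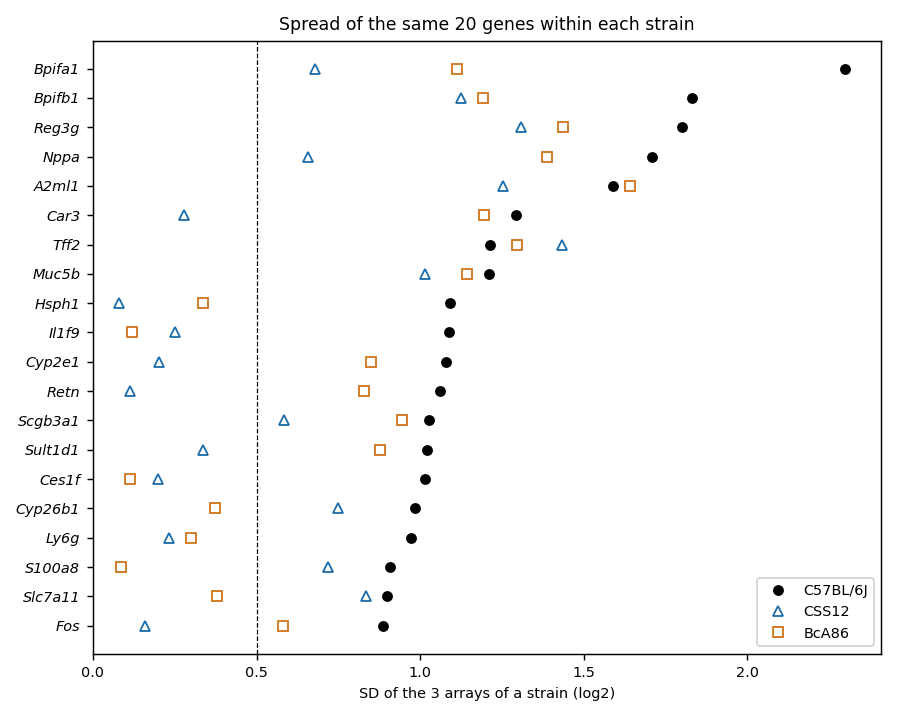
SD among the 3 arrays of each strain for the 20 genes chosen for their SD in C57BL/6J (black circles), in CSS12 (blue triangles) and in BcA86 (orange squares). The dashed line marks an SD of 0.5, which 11 of the genes reach in CSS12 and 13 in BcA86, and the C57BL/6J values are large by choice.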

How the data were processed

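RNA from lung tissue of 9 mice (3 each of C57BL/6J, CSS12 and BcA86) was hybridised to Affymetrix mouse gene arrays, 1 array per mouse. The values deposited by the authors are log2 expression values, background-corrected, quantile-normalised and summarised by RMA in FlexArray, whose version is not given in the sources used here. Quantile normalisation gives the arrays nearly the same distribution, so a shift of all genes cannot be seen. Arrays report no counts, and their number, 3, limits the precision.

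Groups follow the strain label, and 0 columns of per-sample values went unused. Platform annotation gave 1 symbol for 23521 probesets, several for 1820 and none listed here for 16004, and only the first were used. Symbols were matched, older ones through synonyms, to a RefSeq table (GRCm38.p6), in which 193 probesets found no entry. It supplied names, chromosomes and promoters, and no gene position on the array is given. Mitochondrial genes were taken by chromosome, a choice made after the symbols were seen. A gene was represented by its probeset with the highest mean.

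Means, SDs and ranges over the C57BL/6J arrays were computed in Python 3.11.15 with pandas 2.3.3 and numpy 2.4.6, and the code was tested on simulated data. No test and no p-value was computed, as 1 group allows none. Named are the 30 genes with the highest mean and the 20 with the largest SD, leaving out 2992 probesets of predicted genes, 663 of small RNAs and 56 of immunoglobulin and T cell receptor segments, and for each list up to 4 members with the highest mean, up to 2 with the lowest and, where arrays differed, up to 4 with the largest SD. All sex-linked genes, and named genes whose probesets disagree most, are also given. The gene lists and members were chosen with earlier results of these data known, and genes outside the rule were picked with their values in view. Alternatives were another background level, centring of arrays, the median probeset, other measures of spread, no exclusion of genes and leaving out each replicate.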

Additional observations from a re-analysis of the deposited data

How the results depend on the processing

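No paired analysis was possible because no groups were compared. With the median of the receptor probesets as the background level in place of their 95th percentile, 21522 probesets lay above it. Over probesets above background only, the median SD was 0.0883 and 102 probesets had an SD of at least 0.5. Leaving out 1 replicate, the median SD of the remaining 2 arrays was 0.0708 to 0.0851 and 265 to 284 probesets reached 0.5, where the SD rests on fewer arrays. Of the 20 most variable genes, 8 to 18 remained, with 8 without replicate 3, 12 without replicate 2 and 18 without replicate 1. Genes that then entered without replicate 3 included Hspa1b, Chordc1, Cyp1a1 and Ces1g. Other measures of spread kept 17 to 20 of them, and 24 to 30 of the brightest 30 genes remained under every alternative tried. The number of lists with a median above the receptors' 95th percentile was 33 of 41 with the median probeset and without each replicate, and it was not recomputed with another background level. Representing genes by their median probeset moved 1 list's median by 0.75. An array differed by at least 0.25 in 7 lists, also after centring.

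Signal over background limits the low end. A probeset at the background level can belong to an expressed gene, and the receptors' own level includes 71 probesets above it. Sequence copies and probes with several symbols were not resolved.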

Other observations

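Several enzymes that handle foreign compounds, picked out after their values were seen, were highest in replicate 2. Cyp1a1, a target of the aryl hydrocarbon receptor, had 8.58, 10.09 and 8.91 in replicates 1, 2 and 3. The carboxylesterase Ces1g had 7.25, 8.75 and 7.64, and the cytochrome Cyp2a4 had 6.32, 7.68 and 6.42. Cyp2a4 is a near copy of Cyp2a5, which had 6.52, 7.35 and 6.00, and how much signal their probes share is not known.

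Single genes departed from these patterns. The chemokine Ccl5, made by cytotoxic cells, was highest in replicate 3, with 9.97, 10.18 and 11.14 in replicates 1, 2 and 3. Zbtb16, a transcription factor that glucocorticoids induce, had 8.09, 8.72 and 9.21. Retnla, a secreted protein of alternatively activated macrophages and airway epithelium, had 10.38, 9.79 and 9.13. The brightest genes with the smallest SDs were Ost4, a subunit of the oligosaccharyltransferase, with 12.34, 12.33 and 12.34, and the lysosomal Psap, with 12.51, 12.50 and 12.50.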
